A study of Mus musculus with 11 samples.

Results

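MYC and the ribosome biogenesis genes it is known to drive were examined as a set of 34 genes chosen by symbol, all of which were found among the 55487 genes of the table and all of which passed the filter on low counts. They were measured by bulk RNA sequencing in 11 libraries of mouse acute myeloid leukaemia (AML). Every leukaemia, in both groups, arose with the combination of Flt3-ITD, which is a duplication that activates a cytokine receptor, and NHD13, a NUP98-HOXD13 fusion. Of these, 6 were Ifnar1 +/- (1 functional copy of a type I interferon receptor subunit gene) and 5 were Ifnar1 -/- (no functional copy). The labels give no age, treatment, transgene promoter or mouse identity, so a p-value here reflects only the variation among these libraries. Some of them may share a mouse. Library totals ran from 25583642 to 38728143 estimated counts. The least counted member, Rrs1, had 49 to 394 counts per library, and the next, Utp20, had 140 to 1040.

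MYC is a transcription factor that pairs with MAX and binds the E-box, and it raises the output of nearly every step of ribosome production in growing blood cells. Ribosomal RNA is transcribed by RNA polymerase I in the nucleolus, is modified by box C/D and box H/ACA ribonucleoprotein particles guided by small nucleolar RNAs (snoRNAs), and is cut and folded by assembly factors into the small and the large ribosomal subunit. Leukaemic and normal progenitors that divide fast keep this programme high, and granulocytes lower it as they mature.

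Promoter windows from RefSeq (GRCm38.p6, from 250 bases before to 50 bases after an annotated start) were matched for 28 of the 34 genes, and 6 of the 28 (21.4%) held CACGTG, the core E-box of MYC and MAX, which reads the same on both strands. Among all 27025 genes with a window, 2187 (8.09%) held it. These were not filtered on counts, while every member passed that filter, so the shares are not of like sets. The members were also picked as genes that MYC is known to drive. The stretches that hold it are shown because this motif is the textbook contact of MYC with its targets. The motif is in capitals, and positions are counted from the start site.
Eif4a1, chr11:69672424-69672673, minus strand, motif at -189: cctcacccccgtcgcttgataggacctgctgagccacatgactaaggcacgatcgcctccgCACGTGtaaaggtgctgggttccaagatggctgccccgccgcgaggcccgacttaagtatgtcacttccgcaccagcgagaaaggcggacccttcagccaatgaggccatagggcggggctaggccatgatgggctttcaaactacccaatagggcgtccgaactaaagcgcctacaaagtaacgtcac
Nop2, chr6:125131633-125131882, plus strand, motif at -60: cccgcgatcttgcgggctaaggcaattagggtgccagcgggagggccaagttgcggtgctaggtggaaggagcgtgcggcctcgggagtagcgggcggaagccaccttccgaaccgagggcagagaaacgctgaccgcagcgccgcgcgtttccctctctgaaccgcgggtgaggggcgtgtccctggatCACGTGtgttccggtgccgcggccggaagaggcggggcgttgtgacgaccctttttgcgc
Eif4e, chr3:138527028-138527057, plus strand, motif at -228: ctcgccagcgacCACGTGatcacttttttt
Eif4e, chr3:138527192-138527221, plus strand, motif at -64: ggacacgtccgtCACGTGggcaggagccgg
Pes1, chr11:3963965-3963994, plus strand, motif at 3: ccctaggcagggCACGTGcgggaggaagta
Utp20, chr10:88826765-88826789, minus strand, motif at 38: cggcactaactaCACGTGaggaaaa
Wdr43, chr17:71616220-71616249, plus strand, motif at 18: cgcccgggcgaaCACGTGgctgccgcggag
Both Eif4e positions are counted from the same start. The windows of the other 22 matched genes do not hold these letters, which says nothing about whether MYC binds near them. No window was matched for Myc, Npm1, Fbl, Bop1, Rrp12 and Rrs1.

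The second feature looked up was the presence of snoRNA genes inside the gene body. In GENCODE M21 (GRCm38), 8 of the 34 genes (23.5%) held at least 1 snoRNA gene on their own strand, against 237 of 14500 tested genes with an entry there (1.63%). The 8 were Ncl, Nop56, Nop58, Dkc1, Wdr43, Gnl3, Ppan and Eif4a1, and Nop56 held the most, 5. The build behind the deposited counts is not given in the sources used here. Exons of 12 members overlap exons of a gene on the other strand. For Noc2l, which encodes a nucleolar repressor protein that also takes part in large-subunit assembly, the overlap with Samd11 spans 598 bases, so its level is uncertain because the use of strand in counting is not given. The other overlaps were of at most 185 bases.

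The libraries differed in lineage, and the members were read against that. All 8 progenitor and leukaemia markers examined (Ptprc, Kit, Flt3, Cd34, Mpo, Hoxa9, Meis1 and Spn) had counts above 0 in every library. Their summed levels were 398 to 1729 CPM (counts scaled to library size with TMM factors). Mpo was near the floor in some, with 0.124 and 0.0737 CPM in Ifnar1 -/- libraries 1 and 4. In Ifnar1 -/- library 2 Ptprc gave 654 CPM of a sum of 1149 CPM, and Kit had 20.3 CPM. Ebf1, the B-lineage transcription factor gene, had 531 to 745 CPM in Ifnar1 +/- libraries 3, 4 and 5 and Ifnar1 -/- libraries 3 and 5, called Ebf1-high below. It had 0.0309 to 8.72 CPM in the other 6, called Ebf1-low, which are Ifnar1 +/- libraries 1, 2 and 6 and Ifnar1 -/- libraries 1, 2 and 4. No library lay between these sets. They are not groups of the study, so values by Ebf1 level are a description with no test. Ifnar1 -/- library 2 stood apart by summed granulocyte and monocyte transcripts. Its sums were 63263 CPM over 8 eosinophil markers, 38726 CPM over 10 neutrophil markers and 3880 CPM over 9 monocyte and macrophage markers. The highest such sums among the remaining 10 libraries were 1915, 6900 and 608 CPM. Single genes made up much of the sums in Ifnar1 -/- library 2, with Prg2 at 47695 CPM and Ngp at 24050 CPM. Not every marker was highest there. Il5ra of the eosinophil list and Ltf, Camp and Elane of the neutrophil list were higher in another library. So were Lyz2, Cd14, Ccr2, Cx3cr1 and Fcgr1 of the monocyte and macrophage list, and the rest were highest in Ifnar1 -/- library 2. Ifnar1 +/- library 6 stood apart by erythroid transcripts, with 135284 CPM over 9 markers against at most 15785 CPM elsewhere. In bulk samples, a change in the share of cells of a type cannot be told apart from a change of RNA per cell.

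Most of the 34 genes were lowest in the same library, and libraries with high mean levels were found in both genotypes. Their mean centred log2 CPM, called the score below, was -0.37, -0.11, -0.04, 0.47, 0.41 and 0.31 in Ifnar1 +/- libraries 1 to 6. In Ifnar1 -/- libraries 1 to 5 it was -0.04, -0.84, 0.45, -0.46 and 0.22. The lowest score belonged to Ifnar1 -/- library 2, and the 3 highest to Ebf1-high libraries of both genotypes. Ifnar1 -/- library 2 had the lowest level of 28 of the 34 genes (82.4%), while it had the lowest level of 22.6% of all 14521 genes tested. The 6 exceptions were Npm1, Ncl, Nhp2 and Mrto4, lowest in Ifnar1 -/- library 4, Pes1, lowest in Ifnar1 +/- library 1, and Polr1a, lowest in Ifnar1 +/- library 4. Ifnar1 +/- library 6 had the highest level of 11 members (32.4%), against 12.4% of all genes. The part that granulocyte, monocyte or erythroid cells had in these values was not tested.

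**Figure D1:**
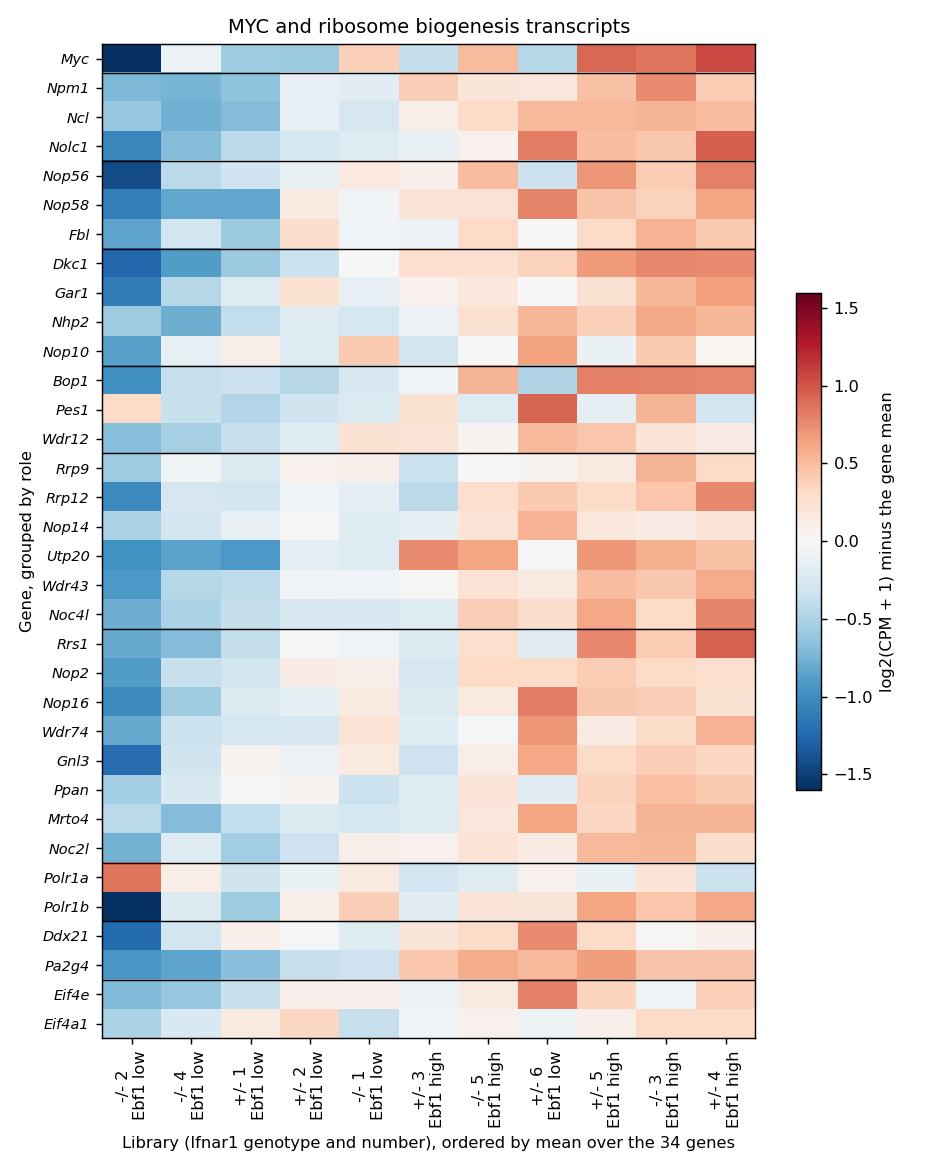
Colour shows log2(CPM + 1) minus the gene's mean for the 34 genes (rows, separated by role) in the 11 libraries (columns, ordered by their mean over the genes), and saturates at the ends of the scale. Most rows run from blue in Ifnar1 -/- library 2 at the left, lowest for 28 genes, to red at the right, and Polr1a runs the other way. The right end holds Ebf1-high libraries. Next to them lies Ebf1-low Ifnar1 +/- library 6, to the right of Ebf1-high Ifnar1 -/- library 5 and Ifnar1 +/- library 3.

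By Ebf1 level, 33 of the 34 genes had a higher mean log2 CPM in the 5 Ebf1-high libraries, where 50.5% of all genes tested did. The median difference over the members was 0.59 on the log2 scale, against 0.01 over all genes tested. Without Ifnar1 -/- library 2 the members' median was 0.47. The sets also differed in other transcripts. The summed level of 10 early B-lineage markers was 5854 to 9237 CPM in Ebf1-high and at most 126 CPM in Ebf1-low libraries. All 9 tested were higher without overlap, against 12.1% of all genes, but they include Ebf1 itself, which defines the sets. Rag1 was near the floor in Ebf1-low libraries, at most 0.434 CPM. Dntt, the marker not tested, overlapped, with 0.324 CPM in Ebf1-high Ifnar1 +/- library 3 and 1.20 CPM in Ebf1-low Ifnar1 +/- library 2. The summed level of 9 erythroid markers was 915 to 3342 CPM in Ebf1-high against 3091 to 135284 CPM in Ebf1-low libraries. The 7 megakaryocyte markers (6 tested) summed to 13.0 to 198 CPM in Ebf1-high and 350.4 to 2699 CPM in Ebf1-low libraries, with no overlap of the sums. Only 1 of the 6 tested, Itga2b, was lower without overlap, as were 9% of all genes. In Ebf1-low Ifnar1 -/- library 2 Itga2b gave 339 CPM of the sum. Pf4 there had 9.60 CPM, under the 90.4 CPM of Ebf1-high Ifnar1 -/- library 5. The 8 progenitor markers had a median sum of 488 CPM in Ebf1-high and of 1120.3 CPM in Ebf1-low libraries. No marker of these lists was at 0 in all libraries. Their part in the members' difference was not tested.

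The sets overlapped for most members. Only Npm1, Bop1 and Utp20 had every Ebf1-high library above every Ebf1-low library, 3 of 34 (8.82%), a share no larger than the 12.1% of all genes tested that did so. No member had every Ebf1-high library below, which held for 9% of all genes. Among the 5 Ebf1-high libraries Ifnar1 +/- library 3 was lowest for 27 members, and among the 6 Ebf1-low libraries Ifnar1 +/- library 6 was highest for 23. Without Ifnar1 +/- library 6 the members that did not overlap numbered 12 (35.3%, against 15.2% of all genes), and without Ifnar1 +/- library 3 they numbered 11 (32.4%, against 13.1%). Scaling to library totals alone gave 6 members (against 15.2% of all genes) and moved the median of all genes to 0.20, relative to which the members' median was 0.58 higher, as with TMM factors. It also raised the share of higher genes among all that did not overlap from 57.3% to 72.1%.

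Between the labelled genotypes, no member passed edgeR's quasi-likelihood test, and neither did any of the 14521 genes (0% called, 289 genes with an unadjusted p under 0.05, 1.99%). DESeq2 called 3 genes, none of them a member. Fitted log2 fold changes of Ifnar1 -/- against Ifnar1 +/- were negative for 31 of the 34 genes, against 51.7% of all genes, with a median of -0.25 against -0.01. They ran from -0.54 to 0.46, every adjusted p was 0.9998, and no member's genotypes were free of overlap (0.124% of all genes were). The median was -0.10 without Ifnar1 -/- library 2 (25 genes negative) and to -0.04 without that library and Ifnar1 +/- library 6 (21 genes negative). It was -0.15 without Ifnar1 +/- library 4 or Ifnar1 -/- library 4, and -0.41 without Ifnar1 -/- library 3. The mean score of the 6 Ifnar1 +/- libraries was 0.11 with an SD of 0.34, and that of the 5 Ifnar1 -/- libraries was -0.13 with an SD of 0.52. The means thus lay closer together than 1 SD of either genotype.

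**Figure D2:**
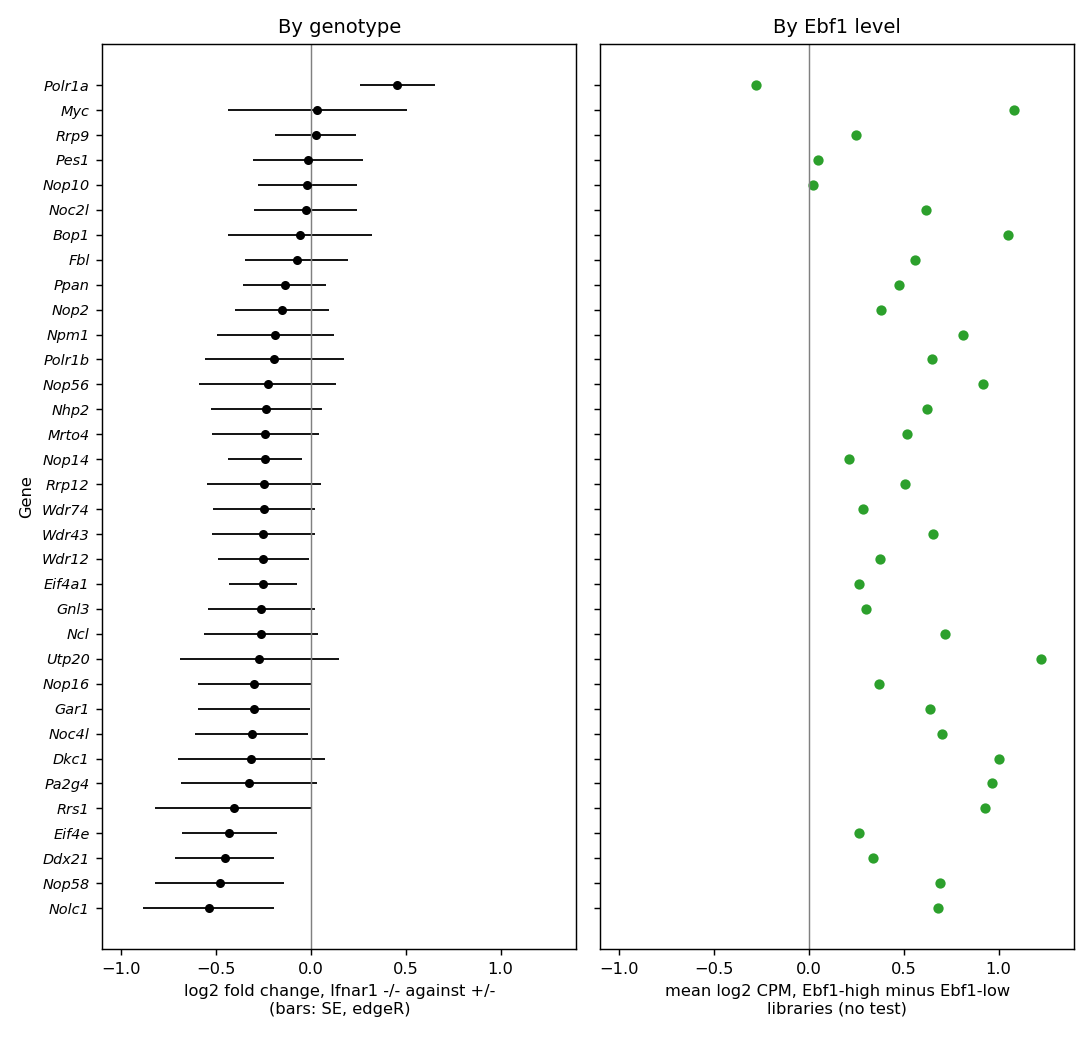
For each of the 34 genes the left panel gives edgeR's log2 fold change of Ifnar1 -/- against Ifnar1 +/- with its SE, and the right panel the difference in mean log2 CPM between 5 Ebf1-high and 6 Ebf1-low libraries, with no test. On the left 31 points lie below 0 and none passed the test, and on the right 33 lie above 0, with Polr1a as the exception.

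Genotype was also set out at like Ebf1 level. Among the 6 Ebf1-low libraries (3 of each genotype) mean log2 CPM was lower in Ifnar1 -/- for 32 members, with a median difference of -0.41 against -0.04 over all genes. Without Ifnar1 -/- library 2 that median was -0.26, without Ifnar1 +/- library 6 it was -0.25, and without both it was -0.04. Among the 5 Ebf1-high libraries (3 Ifnar1 +/- and 2 Ifnar1 -/-) it was lower for 13 members and higher for 21, with a median of 0.06, which became -0.07 (27 lower) without Ifnar1 +/- library 3. edgeR called 0 genes within either set, with 371 Ebf1-low and 483 Ebf1-high fits at an unadjusted p under 0.05. Whether the genotype difference itself differs between the sets was not tested.

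Myc itself was the most variable of the 34 genes, with a span of 2.69 on the log2 scale between its lowest and highest library, against 0.84 for Eif4a1, the least variable. Myc (ENSMUSG00000022346, chromosome 15, 61985391 to 61990374 on the plus strand in GENCODE M21) had 145, 142, 164, 446, 406 and 157 CPM in Ifnar1 +/- libraries 1 to 6. In Ifnar1 -/- libraries 1 to 5 it had 280.4, 68.9, 391, 201 and 305 CPM. The genotypes overlapped, with a mean of 243 ± 142 CPM (SD, n = 6) for Ifnar1 +/- and of 249 ± 121 CPM (SD, n = 5) for Ifnar1 -/-. In edgeR this gave a log2 fold change of 0.03 (SE 0.47, adjusted p = 0.9998). Of the 5 Ebf1-high libraries 4 exceeded every Ebf1-low library, and the fifth, Ifnar1 +/- library 3, lay at 164 CPM among the low ones. In Ifnar1 +/- library 6 Myc was 157 CPM while the score was among the 4 highest. That library also had the most erythroid transcripts (135284 CPM over 9 markers), and their part in its values was not tested.

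**Figure D3:**
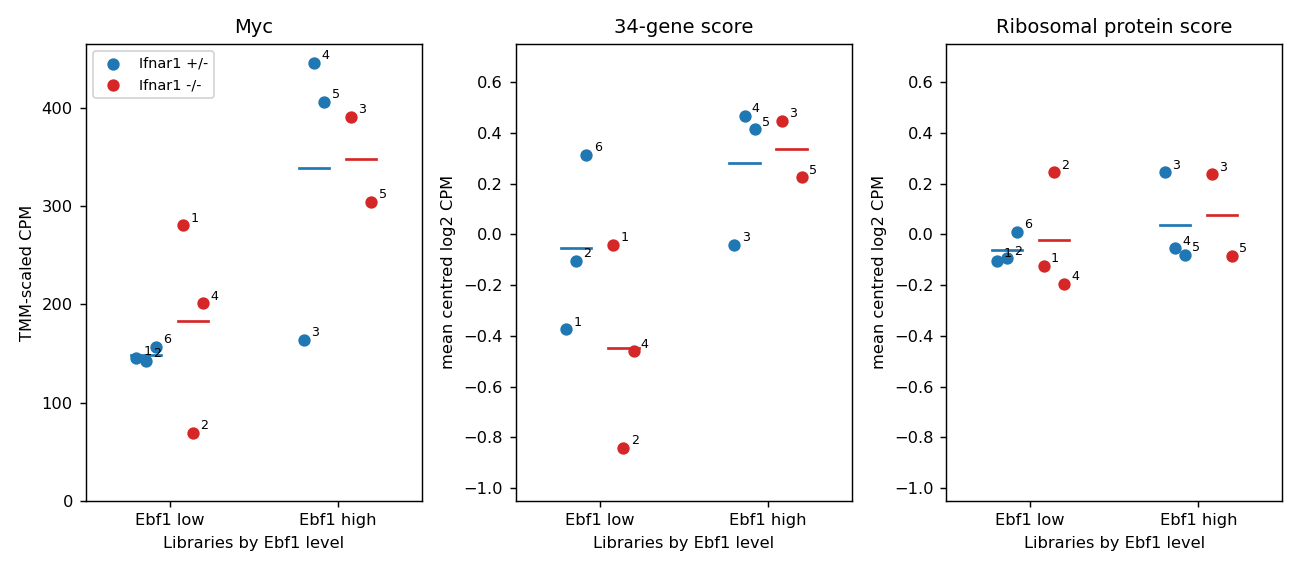
Points are libraries, numbered within genotype, placed by Ebf1 level, and short lines are means of the libraries of a genotype in a set, with Myc in CPM at the left, the 34-gene score in the middle and the score of 82 ribosomal protein genes at the right (mean centred log2 CPM). Myc and the 34-gene score are lowest in Ifnar1 -/- library 2 (68.9 CPM and -0.84), whose ribosomal protein score of 0.25 lies beside those of Ifnar1 +/- library 3 and Ifnar1 -/- library 3 (both 0.24).

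Nucleolar scaffold genes were among those with the larger differences by Ebf1 level. Npm1 encodes nucleophosmin, an abundant nucleolar chaperone. It had 858, 1224, 1752, 1777, 1851 and 1519 CPM in the Ifnar1 +/- libraries and 1189.6, 810.4, 2247, 795 and 1524 CPM in the Ifnar1 -/- libraries, in the same order as above. All 5 Ebf1-high libraries (1524 to 2247 CPM) lay above the 6 Ebf1-low ones (795 to 1519 CPM), though the nearest of them differed by little. Nolc1 encodes a phosphoprotein that chaperones snoRNPs between nucleolus and Cajal bodies. Its levels were 116, 129.6, 146, 307, 222 and 279 CPM in Ifnar1 +/- and 136, 75.7, 213, 97.1 and 166 CPM in Ifnar1 -/- libraries. It had the most negative genotype log2 fold change of the 34 genes, -0.54 (SE 0.35, edgeR unadjusted p = 0.147, adjusted p = 0.9998), with overlapping genotypes. Ncl, which encodes nucleolin, had 527 to 1302 CPM.

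Box C/D particles methylate ribosomal RNA, and their core genes Nop56, Nop58 and Fbl differed by 0.56 to 0.92 by Ebf1 level. Nop56, a scaffold protein gene, had 223, 255, 293, 487, 452 and 219 CPM in Ifnar1 +/- libraries. In Ifnar1 -/- libraries it had 309, 102, 367, 205 and 390.4 CPM. Its 4 highest libraries were the 4 highest of Myc, all Ebf1-high, and Ifnar1 +/- library 3, the remaining Ebf1-high one, lay under Ifnar1 -/- library 1. Nop58, its paralogous partner, had 90.4, 179, 187, 251, 223 and 279 CPM and 157, 75.6, 209, 90.7 and 189.7 CPM. Unlike Nop56, it was highest in Ifnar1 +/- library 6. Fbl, the gene of the methyltransferase fibrillarin, had 55.6 to 149 CPM.

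Box H/ACA particles turn uridine into pseudouridine, and Dkc1 encodes their catalytic subunit, dyskerin. Dkc1 had 118, 142, 216, 302, 287 and 232 CPM in Ifnar1 +/- libraries. It had 178, 74.4, 307, 96.4 and 214 CPM in Ifnar1 -/- libraries, and of the Ebf1-low libraries only Ifnar1 +/- library 6 reached the Ebf1-high range of 214 to 307 CPM. Gar1, which encodes a partner that helps release the product, had 21.3, 29.3, 25.9, 39.5, 29.4 and 24.6 CPM and 22.5, 10.8, 36.1, 17.7 and 27.9 CPM. Its genotypes overlapped (log2 fold change -0.30, SE 0.29). Nop10, the gene of the smallest subunit, had a different order of libraries. It had 238, 194, 182, 229, 207 and 349 CPM in Ifnar1 +/- and 300.4, 122, 301, 203 and 225 CPM in Ifnar1 -/- libraries, with a difference by Ebf1 level of 0.02.

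In the PeBoW complex, which is needed to process the precursor of the large-subunit RNAs, the 3 subunit genes differed by unequal amounts by Ebf1 level. Bop1 had 110.0, 103, 133, 239, 244 and 100.02 CPM in Ifnar1 +/- libraries and 117, 70.3, 242, 108 and 204 CPM in Ifnar1 -/- libraries. Every Ebf1-high library (133 to 244 CPM) was above every Ebf1-low one (70.3 to 117 CPM). The difference was 1.05, while that by genotype was -0.06 (SE 0.38). Wdr12 ranged from 65.7 CPM in Ifnar1 -/- library 2 to 152 CPM in Ifnar1 +/- library 6, with 81.6, 93.0, 123, 115, 144 and 152 CPM in Ifnar1 +/- and 125, 65.7, 123, 73.4 and 109 CPM in Ifnar1 -/- libraries. Pes1, whose window holds the E-box shown above, differed by only 0.05 by Ebf1 level and was at 376 CPM highest in Ifnar1 +/- library 6.

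Among the 6 small-subunit processing genes, Utp20 had the largest difference by Ebf1 level of all members. Utp20 encodes a large scaffold of the small-subunit processome and carries the E-box stretch printed above. It had 7.53, 13.5, 26.3, 21.2, 25.1 and 14.7 CPM in Ifnar1 +/- libraries and 13.0, 7.22, 22.8, 7.85 and 24.0 CPM in Ifnar1 -/- libraries. The 5 Ebf1-high libraries held 21.2 to 26.3 CPM and the 6 others 7.22 to 14.7 CPM, a difference of 1.22 on the log2 scale. Nop14, a factor in the same particle, moved less, with 42.0, 46.7, 41.2, 53.3, 52.4 and 68.3 CPM and 40.3, 32.3, 50.5, 37.2 and 53.7 CPM. It differed by 0.21 by Ebf1 level and by -0.24 (SE 0.19) by genotype. Rrp9, which encodes a protein of the U3 snoRNP, differed by 0.25, Rrp12 by 0.51, Wdr43 by 0.65 and Noc4l by 0.70.

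The 8 large-subunit assembly genes differed by 0.28 to 0.93 by Ebf1 level, with 0 of them free of overlap. Rrs1, which helps to place the 5S RNA particle, had 3.75, 5.05, 4.32, 10.9, 9.51 and 4.51 CPM in Ifnar1 +/- libraries. It had 4.91, 2.53, 7.23, 2.84 and 6.36 CPM in Ifnar1 -/- libraries. As for Myc, 4 Ebf1-high libraries were above all others and Ifnar1 +/- library 3 was not. Nop16, an assembly factor, had 104, 109.8, 103, 144, 165 and 215 CPM and 134, 59.3, 159.7, 81.3 and 136 CPM, and its highest library was again Ifnar1 +/- library 6. The remaining 6 genes, Nop2, Wdr74, Gnl3, Ppan, Mrto4 and Noc2l, had genotype log2 fold changes of -0.26 to -0.03.

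The catalytic subunit genes of RNA polymerase I went opposite ways. Polr1a encodes the largest subunit and was the only member with a lower mean in Ebf1-high libraries, by -0.28. It had 40.3, 46.6, 40.4, 39.3, 46.6 and 52.9 CPM in Ifnar1 +/- libraries and 55.5, 92.0, 58.6, 54.0 and 43.9 CPM in Ifnar1 -/- libraries. All Ifnar1 -/- libraries but library 5 lay above every Ifnar1 +/- library. No other member had so small a p before adjustment (log2 fold change 0.46, SE 0.20, edgeR unadjusted p = 0.0416, adjusted p = 0.9998), and it was 1 of 34 members below 0.05. Without Ifnar1 -/- library 2 the log2 fold change was 0.26. Polr1b encodes the second largest subunit and had 29.7, 47.7, 39.3, 69.0, 69.6 and 51.1 CPM and 59.0, 13.8, 61.2, 38.1 and 51.4 CPM. In Ifnar1 -/- library 2 the polymerase's subunit genes were thus at opposite ends of their ranges, Polr1a at its highest and Polr1b at its lowest.

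Ddx21 and Pa2g4 encode nucleolar proteins tied to growth. DDX21 is an RNA helicase that links polymerase output to rRNA processing, and its gene had 138, 129, 149.8, 138, 162 and 222 CPM in Ifnar1 +/- and 114, 55.0, 133, 107 and 162 CPM in Ifnar1 -/- libraries. The log2 fold change of -0.45 (SE 0.26) did not pass (edgeR unadjusted p = 0.110, adjusted p = 0.9998). Pa2g4 encodes a proliferation-associated RNA-binding protein and had 316, 391, 682, 689.9, 796 and 718 CPM and 398, 262, 691, 278 and 759 CPM. Its Ebf1-high libraries held 682 to 796 CPM, and of the Ebf1-low libraries only Ifnar1 +/- library 6 reached that range.

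The translation initiation genes Eif4e and Eif4a1 encode the cap-binding protein and an RNA helicase of the same complex. Eif4e had 148, 201, 178, 249, 244 and 334 CPM in Ifnar1 +/- and 202, 116, 183, 125 and 211 CPM in Ifnar1 -/- libraries. It was highest in Ifnar1 +/- library 6, and its genotype log2 fold change of -0.43 (SE 0.25) did not pass (edgeR unadjusted p = 0.113, adjusted p = 0.9998). Eif4a1 had 414 to 741 CPM. By Ebf1 level they differed by 0.27 and 0.26, less than most members, although both hold the E-box in a promoter window.

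Genes with either sequence feature were found among the smaller and the larger differences by Ebf1 level. The 6 genes with the E-box differed by 0.05 (Pes1), 0.26 (Eif4a1), 0.27 (Eif4e), 0.38 (Nop2), 0.65 (Wdr43) and 1.22 (Utp20). The 8 genes with snoRNA genes inside ran from Eif4a1 (0.26) over Gnl3 (0.30) and Ppan (0.47) to Nop56 (0.92) and Dkc1. Both spans lie on either side of the members' median of 0.59.

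Other genes of the pathway came from lists written by function, and none of them passed edgeR's test by genotype. MYC-linked growth and metabolism genes (33 tested) had a median difference by Ebf1 level of 0.67, with 12 higher without overlap (36.4%) and 1 lower. Among them Tert, the telomerase reverse transcriptase gene, had 2.70 to 18.01 CPM in the Ebf1-high and 0 to 0.494 CPM in the Ebf1-low libraries. The Ebf1-low values lay near the floor, and Tert passed the low-count filter through the Ebf1-high libraries, so its lack of overlap carries little weight. Other small-subunit processome genes (31) had a median of 0.38 and other large-subunit assembly genes (38) a median of 0.45, with 5 (16.1%) and 4 (10.5%) higher without overlap, shares near the 12.1% of all genes tested. Dhx37, a helicase gene of the small-subunit processome, had 29.9 to 75.3 CPM against 18.2 to 24.8 CPM, and the helicase gene Ddx54 of the large-subunit list 238 to 318 CPM against 83.1 to 142 CPM. RNA polymerase I machinery (17) had a median of 0.30, with Taf1b, a gene of the selectivity factor for ribosomal DNA, as its 1 gene without overlap (35.8 to 51.6 CPM against 12.2 to 28.2 CPM).

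The mature ribosome's own protein genes had differences nearer to 0. The 82 cytosolic ribosomal protein genes tested had a median difference by Ebf1 level of 0.07 and a median genotype log2 fold change of 0.03, with 28 negative and 54 positive. Their score was 0.25 in Ifnar1 -/- library 2, 0.24 in Ifnar1 +/- library 3 and 0.24 in Ifnar1 -/- library 3, and at most 0.01 in the others. In Ifnar1 -/- library 2 the score of the 34 biogenesis genes was the lowest at -0.84. Many ribosomal protein genes have near-identical processed copies, so single values are uncertain. Other translation factors (29) had a median of 0.15 by Ebf1 level and -0.13 by genotype, among them Eif5, which encodes the factor that triggers GTP hydrolysis at the start codon. Its mean was 198 CPM (SD 24.7) over the Ifnar1 +/- and 144 CPM (SD 16.9) over the Ifnar1 -/- libraries (edgeR unadjusted p = 0.0103, adjusted p = 0.9998). Noncoding snoRNA host genes (13 of 15 tested) had a median of -0.23 by Ebf1 level and of -0.14 by genotype.

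**Figure D4:**
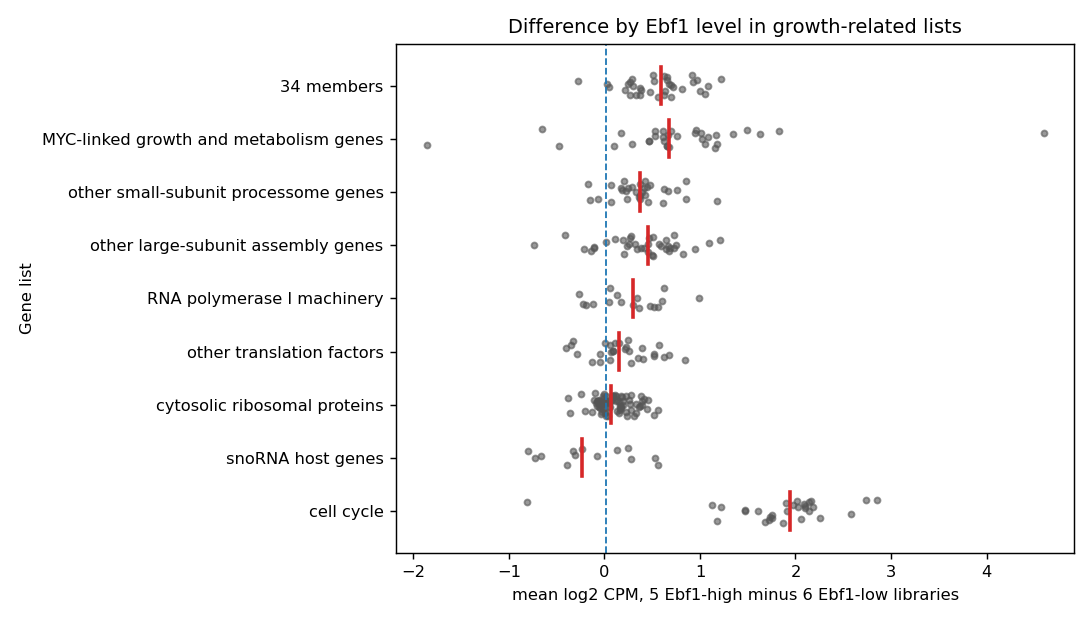
Each point is a gene, placed by its difference in mean log2 CPM between 5 Ebf1-high and 6 Ebf1-low libraries. Red bars are list medians and the dashed line is the median of all genes tested (0.01), with the members at 0.59, ribosomal proteins at 0.07 and cell cycle genes at 1.95.

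In the MYC network list (16 of 18 tested, median 0.24 by Ebf1 level) 9 genes had a higher and 7 a lower mean in the Ebf1-high libraries. In each direction 1 was free of overlap, against 12.1% of all genes higher and 9% lower. The lower one, Mxd1, which encodes a MAX partner that competes with MYC and rises in maturing myeloid cells, had 10.2 to 22.1 CPM in the Ebf1-high and 26.0 to 782 CPM in the Ebf1-low libraries. Fbxw7, which encodes the part of a ubiquitin ligase that recognises MYC, overlapped between the sets with a difference of -0.21. The highest value of Mxd1, 782 CPM, was in Ifnar1 -/- library 2, where Myc was lowest at 68.9 CPM. Genes of the p53 response, which ribosome stress is known to trigger, had a median difference of -0.96 (13 tested). Of these 5 were lower and 0 higher without overlap, against 9% and 12.1% of all genes. Eda2r, 1 of the 5, had at most 0.0640 CPM in the Ebf1-high and 0.134 to 12.1 CPM in the Ebf1-low libraries. It passed the low-count filter through the Ebf1-low libraries, so its lack of overlap carries little weight.

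Cell cycle genes separated the Ebf1 sets far more than the members did. Of 30 tested genes 27 were higher without overlap (90%, against 12.1% of all genes), with a median difference of 1.95. Bub1b, a mitotic checkpoint gene, had 158 to 278 CPM against 12.2 to 54.4 CPM. The cell cycle score was 0.87 to 1.10 in the Ebf1-high and -1.92 to 0.08 in the Ebf1-low libraries. In Ifnar1 +/- library 3 it was 0.87 while the members' score was -0.04, and in Ifnar1 -/- library 2 it was -0.57, above those of Ifnar1 +/- library 1 (-1.92) and Ifnar1 -/- library 4 (-1.62), while its members' score was the lowest of all. The part of proliferation in the members' levels was not tested.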

How the data were processed

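The authors deposited estimated counts of reads per gene for 11 libraries, not scaled between samples, as 1 table. Per the submitters' processing notes, bcl2fastq and DRAGEN were used, with no version. Genome build and annotation: not given in the sources used here. Of 55774 rows, 287 identical copies were dropped, leaving 55487 genes, and 55141 identifiers had a symbol. Estimated counts were rounded and tested with edgeR 4.0.16 (R 4.3.3) after filterByExpr by genotype, which left 14521 genes, with TMM factors, glmQLFit with robust=TRUE, glmQLFTest and Benjamini-Hochberg adjustment at 0.05. The step was tested on simulated data. Each SE was derived from the fold change and its F statistic. Log2 CPM has a prior count of 2, and libraries were split at 100 CPM of Ebf1. Members and lists were chosen with earlier results of these data known. Genes given in every library are Myc and, per role, the member with the smallest p and the member with the largest difference by Ebf1 level, and from each other list at most 2 by the same rule. Flagged members are given likewise, and any other member may be named. Alternatives were DESeq2 1.42.0, limma 3.58.1 voom, other scalings, filters and prior counts (0.5 and 5), a replicate block, an Ebf1 covariate, either Ebf1 set alone, and each library left out. A fit on 9 libraries and the sets without single libraries were added after seeing the data.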

Additional observations from a re-analysis of the deposited data

Results flagged for a closer look

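In 70 groups examined (34 genes and the score in each genotype), 2 values lay farther from the rest of their genotype than Dixon's limit allows, where chance flags about 1 group in 20. Both were in Ifnar1 +/- library 6, the library with the most erythroid transcripts. Nop10 was at 349 CPM there, against 182 to 238 CPM in the other Ifnar1 +/- libraries. Ddx21 was at 222 CPM, against 129 to 162 CPM.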

How the results depend on the processing

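The count of genes called between genotypes was 0 in edgeR under every scaling, filter, covariate and left-out library tried and in limma voom, and 3 in DESeq2. Negative fold changes among the members numbered 25 to 33 with 1 library left out and 13 in the Ebf1-high libraries alone, and their median was -0.41 to -0.10 with 1 library left out. Members higher without overlap by Ebf1 level numbered 6 without TMM factors, 2 to 12 with 1 library left out and 12 on the 9 libraries without Ifnar1 -/- library 2 and Ifnar1 +/- library 6. The median difference by Ebf1 level stayed at 0.47 to 0.69 with 1 library left out. Nothing in the labels says that equal replicate numbers pair the samples. The correlations of same-numbered deviations were 0.41, 0.15, 0.58, -0.55 and 0.52, and 0 of 5 Ifnar1 -/- libraries correlated best with their own number. These values cannot decide on pairing, because same-numbered libraries also share or differ in Ebf1 level. Number 4 is Ebf1-high in Ifnar1 +/- and Ebf1-low in Ifnar1 -/-. The replicate block left 0 calls, with 30 negative members, a median of -0.22 and Myc at -0.0922. Some genotype fold changes turned sign, and not all of these were near 0 in the main fit (Gar1 -0.30, Nop16 -0.30, Pa2g4 -0.33). Myc was -0.14 in limma voom and lay between -0.19 and 0.30 with 1 library left out. Bop1 was 0.12 with the Ebf1 covariate. With 1 library left out it lay between -0.30 and 0.13, and Polr1b between -0.34 and 0.0370. In the Ebf1-high libraries Npm1 (0.0737), Gar1 (0.0203), Bop1 (0.12), Nop14 (0.0905), Nop16 (0.11) and Pa2g4 (0.0046) turned, and on the 9 libraries Bop1 (0.0324), Nop16 (0.0385) and Polr1b (0.0482). The cause was not tested.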
